A study of Mus musculus with 5 samples.

Results

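Adenosine signalling in the mouse retina was followed through 8 genes, taken as the rows of the count table that carry their symbols out of 33636 rows in all. They comprised 4 adenosine receptors (Adora1, Adora2a, Adora2b and Adora3) and 4 genes of adenosine production, transport and removal (Nt5e, Slc29a1, Adk and Ada). Each symbol had 1 row, and all 8 rows passed the filter of more than 10 counts in at least 2 libraries, as did 17432 rows of the table. Retinas came from male wild-type C57BL/6J mice at postnatal day 42. Each mouse had gone through 2 weeks of form deprivation, begun on day 28, in which a translucent diffuser blurs the image of one eye and induces form-deprivation myopia (FDM); right eyes were deprived, and left eyes were the controls. The control libraries are therefore contralateral eyes of goggled mice, and eyes of untreated mice were not measured. There were 2 FDM and 3 Control libraries of polyadenylated RNA. The labels gave refractive errors of 0.274 to 0.976 D for the FDM eyes and 2.45 to 3.15 D for the Control eyes. FDM 1 and Control 1 came from mouse 1 and FDM 3 and Control 3 from mouse 3, while Control 2 had no partner because the authors left out 1 FDM library for its read duplication. The column of the count table and the study number the second FDM library 3, and the sample labels number it 2.

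Adenosine is a breakdown product of ATP that acts as a local signal. Outside the cell, ATP and ADP are cut to AMP by ectonucleotidases, and the surface enzyme CD73, the product of Nt5e, removes the last phosphate. The A1 and A3 receptors (Adora1 and Adora3) couple to Gi proteins, which lower cyclic AMP, and the A2 receptors (Adora2a and Adora2b) couple to Gs proteins, which raise it. The transporter ENT1, made from Slc29a1, moves adenosine across the membrane in either direction, adenosine kinase (Adk) turns it back into AMP, and adenosine deaminase (Ada) turns it into inosine. In the retina, adenosine builds up in the dark and is involved in the tuning of rods, cones and their synapses and of blood flow. Methylxanthines such as caffeine and 7-methylxanthine block adenosine receptors, and the latter has been used against the progression of myopia.

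The libraries held between 40599047 and 56534931 estimated counts, and 3 groups of marker genes set 1 or 2 libraries apart from the rest. Summed CPM (counts scaled to the effective size of the library) of 19 lens genes was 2712 in FDM 3 and between 27.6 and 68.7 in the other 4 libraries. Summed CPM of 11 genes of the retinal pigment epithelium (RPE) was 234 in Control 2 and 287 in Control 3, against 66.8 to 70.9 in FDM 1, FDM 3 and Control 1. A list of 8 skeletal muscle genes summed to 72.6 CPM in Control 3 and to between 9.34 and 10.9 CPM in the other 4 libraries. Markers of retinal cells were abundant throughout: the 9 rod genes summed to between 54531 and 68426 CPM and the 6 Müller glia genes to between 3125 and 3309 CPM. Across all genes, edgeR's quasi-likelihood test at an unadjusted p under 0.05 called 281 of 17432 genes (1.61%), 79 higher and 202 lower in FDM eyes, and none after Benjamini-Hochberg adjustment. DESeq2 called 172 genes at the same unadjusted threshold, of which 3 passed adjustment. Nothing in the labels says more of the replicates than a number and the refractive error of the eye. The mouse of each eye follows the study's numbers, and p-values measure the spread between these 5 libraries.

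None of the 8 adenosine genes was called as different between FDM and Control eyes, against the 1.61% of all genes tested. The abundant members were tightly bounded: the 95% interval of the fold change ran from 0.793 to 1.12 for Adora1, from 0.847 to 1.19 for Nt5e, from 0.815 to 1.20 for Slc29a1 and from 0.823 to 1.19 for Adk. The rare members were not, and for Ada the interval ran from 0.823 to 2.25. Of the 8 fold changes 3 lay above 1 and 5 below, with a median log2 fold change of -0.01, the same as the median of -0.01 over all genes tested. Ada alone had FDM and Control libraries that did not overlap in CPM, an arrangement that 10.6% of all genes tested showed in one direction or the other.

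Per kilobase of exon, Nt5e and Adora1 had the highest levels. Levels between genes were compared as TPM, a scale on which the length-corrected counts of every library have the same sum, computed from the counts and the length of all annotated exons of each gene, retained introns included, which for Adk makes 8526 bases against 1818 for its longest coding transcript. The mean TPM over the 5 libraries was 63.8 for Nt5e, 43.4 for Adora1, 20.1 for Slc29a1, 8.19 for Adk, 3.78 for Adora2b, 2.54 for Adora3, 1.29 for Adora2a and 0.808 for Ada. Lengths of coding transcripts were not used, and the order could differ with them. For Adora3, too, all exons make 3729 bases, against 2370 for its longest coding transcript. On all annotated exons, this order was the same in each of the 5 libraries. Neighbours in it did not overlap in range across libraries, except Adora2b, with 3.07 to 4.39 TPM, and Adora3, with 1.73 to 3.27 TPM. The gene of the Gi-coupled A1 receptor thus had the highest level per length among the receptors, and Adora2a, one of the Gs-coupled pair, the lowest. Among the enzymes and the transporter, the level per length fell from the gene for making adenosine outside the cell (Nt5e) to that for deaminating it (Ada).

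**Figure D1:**
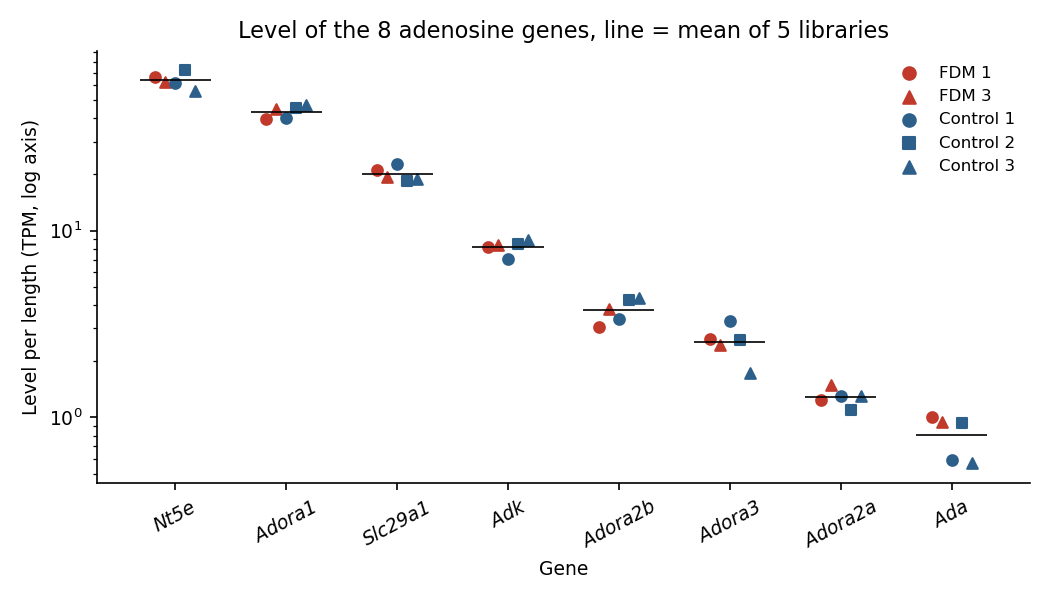
Level per length (TPM, log axis) of the 8 adenosine genes in each of the 5 libraries, red for FDM and blue for Control eyes, with the marker shape for the mouse and a line at the mean of the 5 libraries. Means fall from 63.8 for Nt5e to 0.808 for Ada, and red and blue points of a gene lie close together on this scale.

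Where the promoters of these genes lie outside annotated exons, their base composition differs between the receptors. RefSeq windows of 250 bases before a transcription start were found for 7 of the 8 genes, as 16 windows of which 10 held no exonic base of the GENCODE M21 annotation, and there was none for Adora2a in the table used. Shown here are the windows of the 3 other receptors and of Ada, the gene whose groups did not overlap, from the GRCm38.p6 build, 5′ to 3′ on the strand of the gene, with the dinucleotide CG in capitals. Adora1 has chr1:134235458-134235707 (minus strand), Adora2b has chr11:62248734-62248983 (plus strand), Adora3 has chr3:105904171-105904420 (plus strand) and Ada has chr2:163750240-163750489 (minus strand).
Adora1: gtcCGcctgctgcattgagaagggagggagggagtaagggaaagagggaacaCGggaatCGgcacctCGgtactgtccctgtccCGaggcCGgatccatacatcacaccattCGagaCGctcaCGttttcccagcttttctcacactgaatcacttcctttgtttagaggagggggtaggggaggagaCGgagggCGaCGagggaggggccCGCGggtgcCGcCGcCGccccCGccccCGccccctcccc
Adora2b: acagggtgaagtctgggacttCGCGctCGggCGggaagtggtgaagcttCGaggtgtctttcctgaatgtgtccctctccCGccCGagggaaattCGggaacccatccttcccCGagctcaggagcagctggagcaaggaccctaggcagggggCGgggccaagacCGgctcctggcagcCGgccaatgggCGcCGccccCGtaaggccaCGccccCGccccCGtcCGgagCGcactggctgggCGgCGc
Adora3: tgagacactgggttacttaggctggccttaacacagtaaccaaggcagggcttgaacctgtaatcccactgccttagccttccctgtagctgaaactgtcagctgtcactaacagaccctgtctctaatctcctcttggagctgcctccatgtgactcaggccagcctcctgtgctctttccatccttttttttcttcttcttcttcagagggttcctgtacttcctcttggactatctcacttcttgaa
Ada: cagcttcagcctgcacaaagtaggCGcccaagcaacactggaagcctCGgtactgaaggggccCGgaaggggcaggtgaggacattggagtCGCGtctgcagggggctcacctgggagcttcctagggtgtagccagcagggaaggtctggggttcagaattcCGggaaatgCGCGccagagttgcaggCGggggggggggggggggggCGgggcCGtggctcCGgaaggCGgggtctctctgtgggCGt
The Adora1 window held 19 CG dinucleotides at 64.4% G and C, the Adora2b window 22 at 69.6% and the Ada window 14 at 67.2%. The Adora3 window held 0 CG dinucleotides at 48.8% G and C. It precedes a start inside the annotated gene, which runs from 105870858 to 105908926. The windows of Adora1, Adora2b and Ada lie outside their annotated genes, so the Adora3 window is of another kind. Over 32851 such windows of all genes the median was 6 CG dinucleotides and 52.4% G and C, and 7.87% held none. The letters describe the sequence only, and neither methylation nor factor binding was measured in these samples.

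Adora1 was the receptor gene with the most counts. It lies on chromosome 1 at 134199223 to 134235431 on the minus strand (GRCm38, GENCODE M21), and its product A1 is the high-affinity receptor that lowers cyclic AMP. Its CPM was 65.8 in FDM 1 and 74.3 in FDM 3, against 68.2, 74.1 and 80.9 in Control 1, 2 and 3. The groups overlapped, and both eyes of mouse 1 were lower than the other 3 libraries. The mean was 70.0 ± 6.03 CPM (SD, n = 2) in FDM and 74.4 ± 6.36 CPM (SD, n = 3) in Control eyes. The log2 fold change was -0.09 (SE 0.11, unadjusted p = 0.432, adjusted p = 1.0 from edgeR). In CPM the FDM eye was slightly the lower one in both mice, with log2 ratios of -0.05 in mouse 1 and -0.12 in mouse 3. Its exons share 1162 of their 5785 bases with those of Mybph on the opposite strand. The library kit does not keep the strand, so reads from these bases cannot be told apart, and Mybph itself was given between 4 and 22 counts per library.

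Adora2b and Adora3 were receptor genes of intermediate level, with 481 and 639 counts over all libraries. Adora2b (chromosome 11, 62248984 to 62266453, plus strand) makes the low-affinity Gs-coupled receptor. Its CPM was 1.61 in FDM 1 and 2.02 in FDM 3, against 1.83, 2.23 and 2.40 in Control 1, 2 and 3. The groups overlapped, with the order of libraries close to that of Adora1. The log2 fold change was -0.25 (SE 0.20, 95% interval -0.71 to 0.22, unadjusted p = 0.256, adjusted p = 1.0 from edgeR). The log2 ratio of the eyes was -0.18 in mouse 1 and -0.25 in mouse 3. Adora2b was the receptor with the lowest fold change, and its eye ratios had the same sign in both mice, but a fold change of 1 lay inside the interval.

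Adora3 (chromosome 3, 105870858 to 105908926, plus strand), which makes the second Gi-coupled receptor, known in rodents from mast cells and microglia among others, had Control eyes on both sides of the FDM eyes. Its CPM was 2.79 in FDM 1 and 2.62 in FDM 3, against 3.61, 2.75 and 1.92 in Control 1, 2 and 3. The mean of the Control eyes was 2.76 ± 0.845 CPM (SD, n = 3), against 2.71 ± 0.121 CPM (SD, n = 2) in the FDM eyes. The log2 fold change was -0.02 (SE 0.26, 95% interval -0.63 to 0.59, unadjusted p = 0.928, adjusted p = 1.0 from edgeR). The eyes of the mice moved in opposite directions, with log2 ratios of -0.37 in mouse 1 and 0.45 in mouse 3. The variance of the counts over libraries was 5.80 times that of counting alone (chi-square per degree of freedom, 4 degrees of freedom). Members with more counts had larger values, at 46.3 for Nt5e, 21.6 for Adora1, 10.1 for Slc29a1 and 6.14 for Adk. Adora3 shares 779 of its 3729 exonic bases with Tmigd3 on the same strand, and the authors' counting gave Tmigd3 1 count in FDM 3 and 0 in the other libraries. How the shared bases were divided is therefore uncertain.

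Adora2a was the rarest receptor gene, with 47 and 63 counts in FDM 1 and FDM 3 and 47, 54 and 56 counts in Control 1, 2 and 3. It lies on chromosome 10 at 75316877 to 75334784 on the plus strand, and its product raises cyclic AMP and is best known from the striatum. In CPM these were 1.08 and 1.31 in FDM and 1.18, 0.947 and 1.18 in Control eyes, with overlapping groups. The log2 fold change was 0.13 (SE 0.22, 95% interval -0.38 to 0.63, unadjusted p = 0.574, adjusted p = 1.0 from edgeR), and the eye ratios were -0.12 in mouse 1 and 0.15 in mouse 3 on the log2 scale. The counts varied between libraries no more than counting alone would give (chi-square per degree of freedom 0.829).

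The direction of Adora2a depended on which deposited table was used. Beside the counts the authors deposited a normalized signal, and counts divided by this signal give a factor for each gene and library. Divided by the library's median factor, the factor of Adora2a was 1.20 in FDM 1 and 1.14 in FDM 3, against 0.861, 0.868 and 0.979 in Control 1, 2 and 3. Both FDM libraries lay above every Control library, as 15.6% of all genes tested did in one direction or the other, and the exact permutation test gave p = 0.2, which is the smallest two-sided value that 2 against 3 libraries allow. The highest factor was 1.40 times the lowest, a wider range than in 95.4% of genes, against a median of 1.06. The normalized signal of Adora2a was accordingly 42.5 and 54.1 in FDM and 63.4, 51.1 and 56.6 in Control eyes. On that signal the log2 fold change turned to -0.24 (limma, log2 of the signal plus 1, unadjusted p = 0.177, adjusted p = 1.0), and with these factors as offsets it was -0.23 in edgeR. The annotation holds 4 Adora2a transcripts of 2596, 434, 538 and 601 bases, and whether their use differed between the groups was not tested, since the files hold no transcript values. Ada also had a wide factor range, 1.27 times, without separation of the groups, and the other 6 members ranged from 1.02 to 1.07 times.

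**Figure D2:**
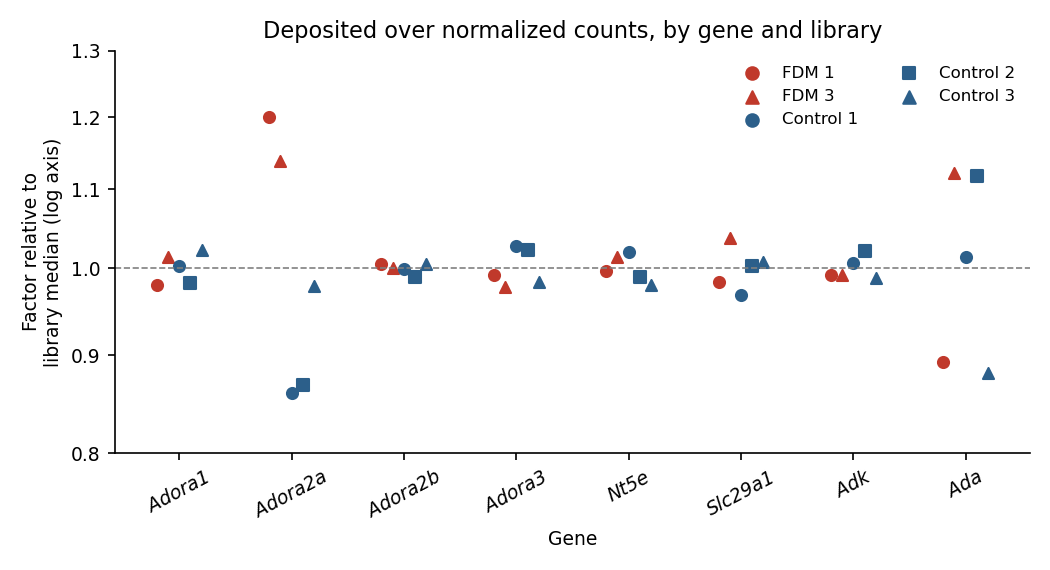
Deposited counts divided by the deposited normalized signal for each adenosine gene and library, relative to the median factor of the library (log axis), red for FDM and blue for Control eyes. Adora2a has its FDM libraries at 1.20 and 1.14 and its Control libraries between 0.861 and 0.979, while the points of most other members lie near 1.

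Nt5e was the most abundant member on both scales and did not separate the groups. The gene (chromosome 9, 88327197 to 88372092, plus strand) makes CD73, a surface protein used as a marker of rods in the mouse retina. Its counts were 7086 in FDM 1 and 7441 in FDM 3, against 6237, 10000 and 6793 in Control 1, 2 and 3. In CPM these were 163 and 155 against 156, 175 and 143, so that the FDM eyes lay inside the range of the Control eyes. The means were 159 ± 6.18 CPM (SD, n = 2) and 158 ± 16.3 CPM (SD, n = 3), with a log2 fold change of 0.01 (SE 0.10, unadjusted p = 0.943, adjusted p = 1.0 from edgeR). Within mice the log2 ratio of the eyes was 0.07 in mouse 1 and 0.11 in mouse 3. The summed CPM of the 9 rod genes was lowest in Control 2, at 54531, where Nt5e was highest, and highest in Control 1, at 68426.

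Slc29a1 and Adk, which carry adenosine across the membrane and phosphorylate it, were equally close between the groups. Slc29a1 (chromosome 17, 45585200 to 45599606, minus strand) had 24.0 and 22.4 CPM in FDM 1 and FDM 3 and 26.9, 20.9 and 22.6 CPM in Control 1, 2 and 3. Its log2 fold change was -0.01 (SE 0.12, unadjusted p = 0.907, adjusted p = 1.0 from edgeR), and the groups overlapped, with both eyes of mouse 1 at the top. An antisense gene shares 275 of its 4008 exonic bases. Adk (chromosome 14, 21052574 to 21448569, plus strand) had 19.8 and 20.4 CPM in FDM 1 and FDM 3 and 17.8, 20.6 and 22.5 CPM in Control 1, 2 and 3. Its log2 fold change was -0.01 (SE 0.11, unadjusted p = 0.911, adjusted p = 1.0 from edgeR), and the FDM eyes again lay inside the Control range. The eye ratios of Adk had opposite signs, 0.15 in mouse 1 and -0.14 in mouse 3 on the log2 scale.

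Ada had the largest fold change of the 8 and the fewest counts. The gene (chromosome 2, 163726584 to 163750239, minus strand) makes the deaminase that removes adenosine inside and outside cells. It had 25 counts in FDM 1 and 26 in FDM 3, against 14, 30 and 16 in Control 1, 2 and 3. In CPM these were 0.577 and 0.541 against 0.351, 0.526 and 0.337. Both FDM eyes lay above every Control eye, by the narrowest margin over Control 2. The means were 0.559 ± 0.0255 CPM (SD, n = 2) and 0.405 ± 0.106 CPM (SD, n = 3). The fold change was 1.36, or 0.44 on the log2 scale (SE 0.31, 95% interval -0.28 to 1.17), and did not pass the test (unadjusted p = 0.192, adjusted p = 1.0 from edgeR). The FDM eye had 1.63 times the CPM of its fellow eye in mouse 1 and 1.59 times in mouse 3, or 0.70 and 0.67 on the log2 scale. On the authors' normalized signal plus 1 the mice were less alike, with log2 ratios of 0.88 in mouse 1 and 0.32 in mouse 3. Blocking on the mouse in edgeR, the log2 fold change was 0.70, with an unadjusted p = 0.0856 and an adjusted p = 0.708. At 14 counts the counting error alone is 26.7%, and the variance of the 5 counts was 1.23 times that of counting (chi-square per degree of freedom). A block on the numbers of the sample labels gave 0.34 instead (unadjusted p = 0.412, adjusted p = 1.0 from edgeR). With single libraries left out, the log2 fold change of Ada was 0.40 without FDM 1, 0.49 without FDM 3, the library with lens RNA, 0.36 without Control 1, 0.71 without Control 2 and 0.33 without Control 3.

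**Figure D3:**
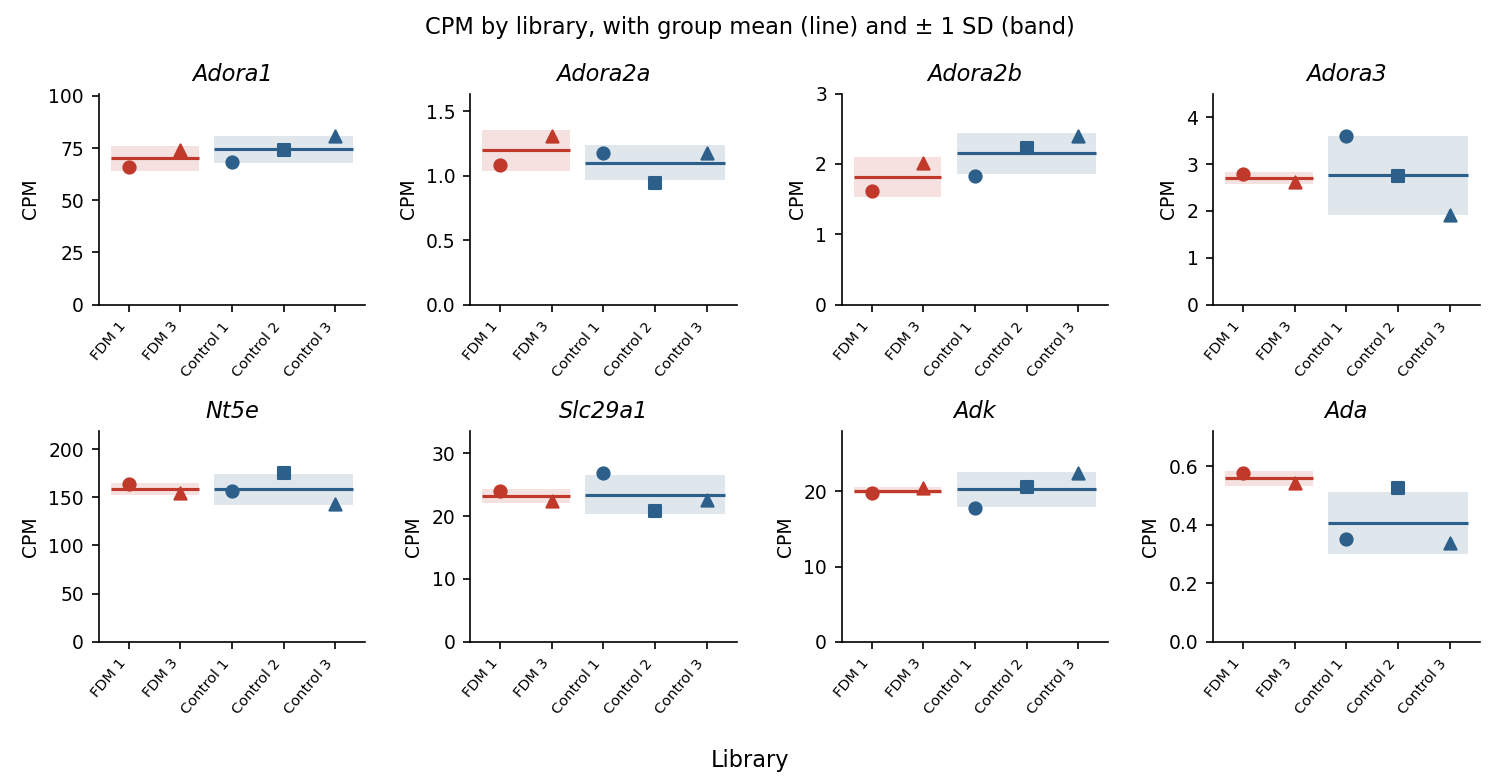
CPM of each adenosine gene in the 2 FDM (red) and 3 Control (blue) libraries, with a line at the group mean and a band of 1 SD to either side; each panel starts at 0 and has its own scale. Points of the groups overlap in 7 panels, and in the Ada panel both FDM points, at 0.577 and 0.541 CPM, lie above the highest Control point, at 0.526 CPM.

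Across the fellow eyes, 5 of the 8 genes moved in the same direction in both mice in CPM: Adora1, Adora2b and Slc29a1 were lower and Nt5e and Ada higher in the FDM eye. Of all genes tested 55.0% did so. On the authors' normalized signal plus 1 it was again 5 of the 8, with Adora2a in place of Adora1. There the log2 ratios in mouse 1 and mouse 3 were 0.0022 and -0.11 for Adora1 and -0.57 and -0.07 for Adora2a. In CPM, the median absolute log2 ratio of the eyes over the 8 members was 0.159 in mouse 1 and 0.144 in mouse 3, beside 0.103 and 0.0975 over all genes tested. When FDM 3 was set against Control 2, the pairing that the sample labels' numbers would give, 3 of the 8 genes moved in the same direction in both pairs, and the log2 ratio of Ada in that pair was 0.04. A fit with the mouse as a block called 7.23% of all genes tested and none of the 8 members. Wherever the mouse was a block, Control 2 had no partner and the difference rested on the eyes of mouse 1 and mouse 3. The p-values of that fit therefore lean on variance estimated across other genes.

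**Figure D4:**
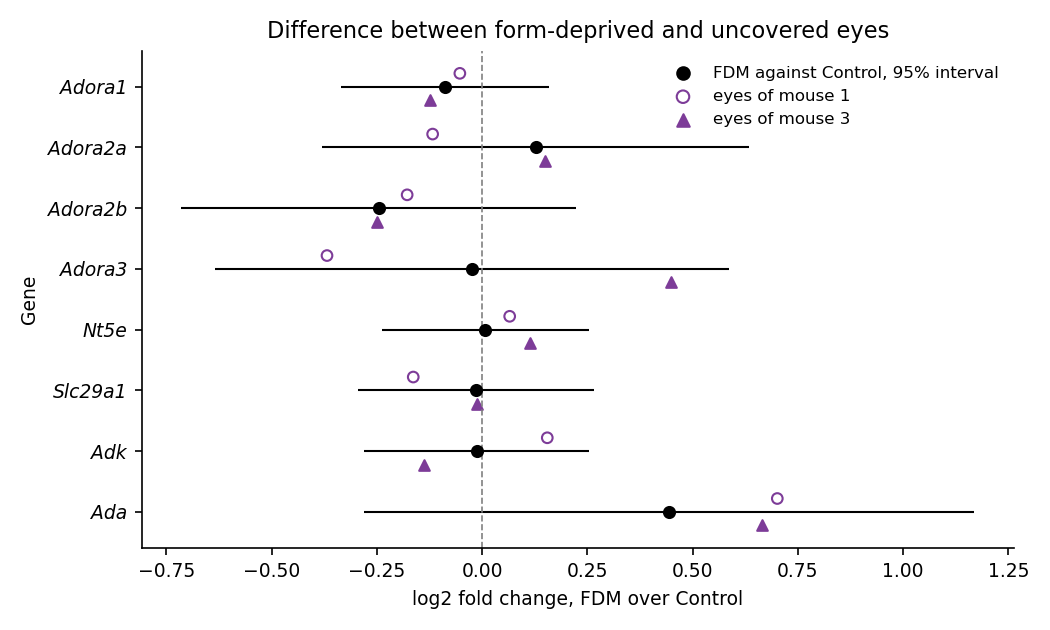
Log2 fold change of each adenosine gene, FDM over Control, from edgeR with its 95% interval (black), and the log2 ratio of the CPM of the eyes of mouse 1 (open circles) and mouse 3 (triangles). Every interval includes 0, from -0.34 to 0.16 for Adora1 to -0.28 to 1.17 for Ada, and both mice lie on the right for Ada.

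Ratios between members of a library do not depend on its total. Of 6 such ratios, only Adk to Ada, the kinase over the deaminase, had groups that did not overlap. It was 8.05 in FDM 1 and 8.87 in FDM 3, against 11.9, 9.18 and 15.7 in Control 1, 2 and 3, in TPM over TPM. FDM eyes were the lower ones, and the exact permutation test gave a two-sided p = 0.2, the smallest value this design allows, with 0.8 after adjustment over the 6 ratios. Ada by itself separated the groups in CPM and Adk did not, so this ratio repeats the separation of Ada and is no further result. Among single genes tested, 10.6% separated the groups in CPM in one direction or the other.

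Some members had their high and low libraries where sums of cell markers did, and in bulk tissue fewer cells of a type and less RNA per cell cannot be told apart. Adora1, Adora2b and Adk were lowest in the eyes of mouse 1 and highest in Control 3, as was the sum of 7 ganglion cell genes. That sum was 946 CPM in FDM 1, 1071 in FDM 3 and 933, 1048 and 1135 CPM in Control 1, 2 and 3. Its largest part was Nefl, at 457 CPM in FDM 1. Singly, Nefl, Sncg, Pou4f1 and Pou4f2 had this pattern, and Rbpms, Nefm and Thy1 did not. Rbpms was lowest in Control 2, Nefm was highest in FDM 3, and Thy1 was lower in Control 2 than in Control 1. Slc29a1 was highest in both eyes of mouse 1, as was the sum of 7 endothelial genes. That sum was 273 CPM in each of them, against 227 to 241 CPM in the other 3 libraries. Most of it was Kdr, at 202 CPM in FDM 1 and 198 CPM in Control 1. Of these 7 genes singly, only Kdr and Cldn5 were highest in both eyes of mouse 1. Tek was lowest in Control 1, Esam was highest in Control 2 and Tie1 in Control 3. The rod and cone sums were highest in the same eyes, so Slc29a1 matched the marker sums of more than 1 cell type. Rod genes summed to 64623 and 68426 CPM in FDM 1 and Control 1, against 54531 to 64580 CPM in the other libraries. Cone genes summed to 1462 and 1444 CPM there, against 1298 to 1365 CPM. None of the ganglion, endothelial, rod or cone genes was called. The sum of 8 microglial genes was 33.9 and 30.7 CPM in FDM and 34.5, 37.3 and 39.8 CPM in Control eyes, lower in FDM eyes without a single gene called, and Adora3 was lowest in Control 3, where this sum was highest. Among single genes, 10.6% of those tested separated the groups in one direction or the other. No marker found in the table was at 0 in all libraries. When the marker genes of lens, RPE and muscle were taken out of the table, the log2 fold change of Ada was 0.44 and that of Adora2b -0.25. The part of these cells in the members' values was not tested.

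Among 33 other genes of adenosine turnover (ectonucleotidases, nucleotidases, pannexins, nucleoside transporters, deaminases and purine salvage), 28 passed the filter and none was called, against the background of 1.61%. Their log2 fold changes had a median of -0.03, with 11 above 0 and 17 below. Pnp2, a purine nucleoside phosphorylase, had the smallest p. It had 4.66 and 3.51 CPM in FDM 1 and FDM 3 and 3.18, 3.65 and 2.82 CPM in Control 1, 2 and 3, which overlapped, at a log2 fold change of 0.34 (SE 0.19, unadjusted p = 0.107, adjusted p = 1.0 from edgeR). Once the mouse entered as a block, Pnp2 was called at 0.43 (unadjusted p = 0.0244, adjusted p = 0.634 from edgeR), as 1 of 28 genes in a fit that called 7.23% of all genes. Pnp2 is nearly identical to its neighbour Pnp, so the authors' counting could divide reads between them, and Pnp went the other way, at -0.21 (unadjusted p = 0.180 from edgeR; named after its value was seen). Dpp4, the membrane peptidase CD26, had 1.22 and 1.64 CPM in FDM and 1.45, 2.21 and 1.96 CPM in Control eyes, at -0.39 (SE 0.25, unadjusted p = 0.154, adjusted p = 1.0 from edgeR). The 5 genes with too few counts were Entpd8, Nt5c1b, Slc28a1, Slc28a2 and Ampd1.

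Downstream of the receptors, 26 genes of G proteins, adenylyl cyclases, protein kinase A and its transcription factors were all tested and none was called. Their median log2 fold change was -0.01, with 12 above 0 and 14 below, in a range of -0.13 to 0.12. Gnal, the Gs-like protein to which the Adora2a receptor couples in striatal neurons, had 34.9 and 34.6 CPM in FDM 1 and FDM 3 and 29.2, 35.3 and 31.9 CPM in Control 1, 2 and 3. The groups overlapped, and the log2 fold change was 0.11 (SE 0.10, unadjusted p = 0.287, adjusted p = 1.0 from edgeR). Adcy7, an adenylyl cyclase, was at 0.12 (SE 0.13, unadjusted p = 0.398, adjusted p = 1.0 from edgeR). Blocking on the mouse called 2 of the 26, Gnal at 0.18 and Adcy1, a calcium-stimulated adenylyl cyclase, at 0.13 on the log2 scale, beside 7.23% of all genes.

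Of 19 genes of cyclic nucleotide phosphodiesterases and ryanodine receptors, families that include other targets of methylxanthines, 1 was called, lower in FDM eyes. Pde2a, a phosphodiesterase that cGMP stimulates, had 610 and 657 counts in FDM 1 and FDM 3 and 647, 915 and 836 counts in Control 1, 2 and 3. In CPM these were 14.1 and 13.7 against 16.2, 16.1 and 17.6, with both FDM eyes below every Control eye. The log2 fold change was -0.26 (SE 0.10, unadjusted p = 0.0279, adjusted p = 1.0 from edgeR), and 1 of 19 stands beside the background of 1.61% of genes. Ryr1, the ryanodine receptor named for skeletal muscle, had 5.58 and 5.28 CPM in FDM and 6.24, 5.67 and 6.61 CPM in Control eyes, also without overlap, at -0.18 (SE 0.13, unadjusted p = 0.187, adjusted p = 1.0 from edgeR). Pde2a and Ryr1 were the 2 of 19 genes whose groups did not overlap, beside 10.6% of all genes tested. The median of the 19 was -0.11 on the log2 scale, with 14 below 0, beside a median of -0.01 and 9688 of 17432 below 0 over all genes tested. Among those below 0, Pde1a, Pde3b, Pde4d, Pde10a and Pde11a each had their highest CPM in Control 2. Pde2a and Ryr1 had theirs in Control 3. Blocking on the mouse called 3, Pde2a at -0.29 (unadjusted p = 0.00443, adjusted p = 0.434 from edgeR), Ryr2 at 0.18 and Ryr3 at 0.28, so that Pde2a lay on the other side of 0 from Ryr2 and Ryr3, in a fit that called 7.23% of all genes. Pde2a did not pass the threshold without FDM 1, without FDM 3 or without Control 3, although its log2 fold change stayed between -0.28 and -0.21 over the 5 omissions. It did not pass either with limma on the authors' normalized signal, with the authors' factors as offsets or with a block on the label numbers. In that last fit the 1 of 19 genes called was Pde10a, a phosphodiesterase known from the striatum, at -0.44 (unadjusted p = 0.00302, adjusted p = 0.300 from edgeR). The same fit called 439 of all 17432 genes tested.

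Of 14 receptors for nucleotides, the precursors of adenosine, 13 were tested and none was called, with a median log2 fold change of -0.01. P2rx3, an ATP-gated channel of sensory neurons, had 2.91 CPM in each of the FDM libraries and 2.65, 2.03 and 2.46 CPM in Control 1, 2 and 3. The FDM eyes were above every Control eye, at a log2 fold change of 0.29 (SE 0.17, unadjusted p = 0.133, adjusted p = 1.0 from edgeR), and limma on the normalized signal plus 1 gave 0.32 (unadjusted p = 0.0188, adjusted p = 1.0). P2ry6, a UDP receptor, had 10 and 17 counts in FDM and 16, 21 and 24 counts in Control eyes. In CPM its FDM eyes lay below every Control eye, at -0.52 (SE 0.35, unadjusted p = 0.173, adjusted p = 1.0 from edgeR). P2rx3 and P2ry6 were the 2 of 13 genes whose groups did not overlap, beside 10.6% of all genes tested. P2rx1 was under the filter.

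**Figure D5:**
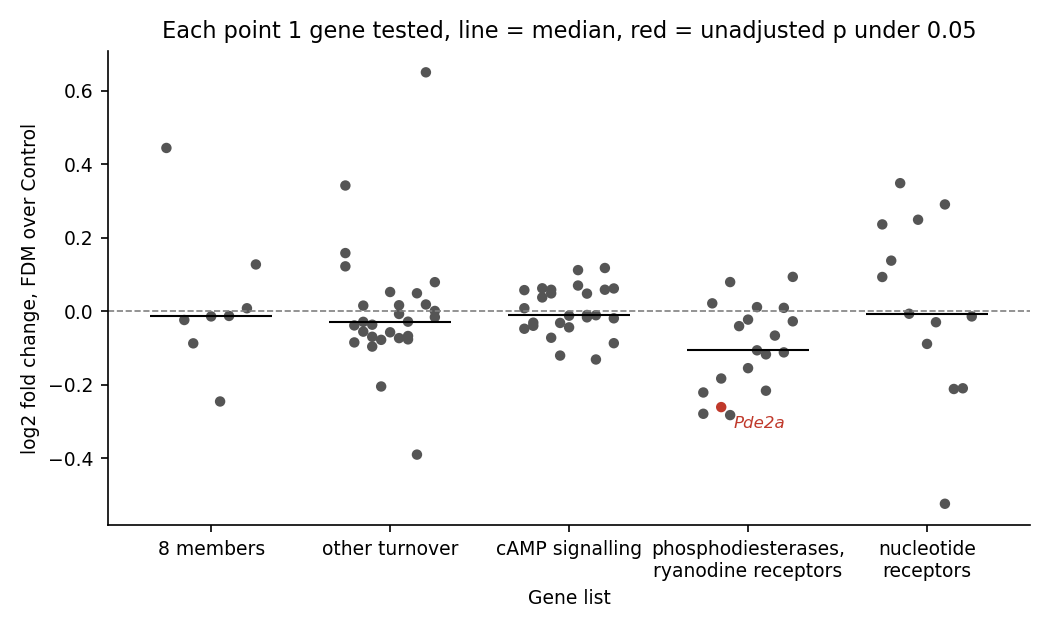
Log2 fold change, FDM over Control, of every tested gene of the 8 adenosine members and of the 4 surrounding lists, with a line at the median of each list. Medians lie between -0.11 for phosphodiesterases and ryanodine receptors and -0.01, and Pde2a, in red, is the 1 gene with an unadjusted p under 0.05 from edgeR.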

How the data were processed

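Retinal RNA was sequenced by the authors as 50-base paired reads from a poly-A kit that keeps no strand. Per the study's methods and the submitters' processing notes, the authors trimmed reads with Trimmomatic 0.39, estimated transcripts with Salmon 1.10.1 on GRCm38, worked in R 4.3.1, and deposited estimated counts per gene as whole numbers. A second deposited table holds the authors' signal, counts after DESeq2 normalization, whose factor differs by gene and library. Totals ran from 40599047 to 56534931 counts, and 6 rows without a gene name were kept out of the members and lists.

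Counts were tested here with edgeR 4.0.16 (TMM, quasi-likelihood, no covariate) in R 4.3.3 over the 17432 of 33636 genes that exceeded 10 counts in 2 or more libraries. The threshold was the study's unadjusted p of 0.05, with Benjamini-Hochberg adjustment over all genes tested beside it, and intervals are at 95%. As alternatives, DESeq2 1.42.0 replaced edgeR, limma 3.58.1 was run on the normalized signal (log2, with 1 or 0.1 added), factors and filters were changed, the mouse became a block, and single libraries were omitted. Groups follow the sample labels. Same-numbered eyes come from one mouse by the study's numbers, and their deviations from the group means correlated at r = 0.231 in mouse 1 and 0.0907 in mouse 3 over genes, against 0.155 for FDM 3 with Control 2; with 2 FDM libraries their deviations mirror each other, so these values are not independent and do not settle the pairing. No libraries were duplicates, with a chi-square per degree of freedom of at least 12.2 between any pair. Coordinates are from GENCODE M21, which held 33586 of the gene identifiers.

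The members and lists were chosen with earlier results of these data known. Named were all members and, in each list, the genes called or, where fewer than 2, the 2 with the smallest p, while genes resembling a member were to be named only where its highest library was 2-fold its lowest in CPM, which no member reached. Acp3 and Hprt1 are the present symbols of Acpp and Hprt. Genes called only in an alternative were named after their values were seen.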

Additional observations from a re-analysis of the deposited data

How the results depend on the processing

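None of the 8 adenosine genes passed an unadjusted p of 0.05 in any of 126 alternatives, and the sign of the log2 fold change differed from the reported one in 23 of them. Adora2a became -0.24 with limma at either pseudocount (-0.240644 at 1 and -0.244897 at 0.1) and -0.23 with the authors' factors as offsets, Adora3 0.0635, 0.0643 and 0.0278, and Adk 0.0228, 0.0228 and 0.0139. With the replicate block on the mouse, Adora3 was 0.0256 and Adk 0.00232, and with the replicate block on the label numbers, Nt5e was -0.0581 and Adk 0.0706. Leaving out 1 library, Adora2a ran from -0.0181 to 0.25, Adora3 from -0.22 to 0.21, Nt5e from -0.0542 to 0.10, Slc29a1 from -0.0802 to 0.10, Adk from -0.10 to 0.0728, Adora1 from -0.18 to -0.00310, Adora2b from -0.42 to -0.10 and Ada from 0.33 to 0.71; where 1 FDM library was left, it was assumed to vary like the Control group. Called genes of the phosphodiesterase and ryanodine receptor list, 1 as reported, were 0 with limma at either pseudocount, 0 with the authors' factors, 3 with the replicate block on the mouse, and 0 to 3 with 1 library left out (3 without Control 1 or Control 2, 0 without FDM 1, FDM 3 or Control 3), and 1, Pde10a in place of Pde2a, with the replicate block on the label numbers. Other turnover genes, 0 as reported, were 1 with genes of at least 1 count, 1 with the replicate block on the mouse and 0 to 1 with 1 library left out (1 without FDM 3, Control 1 or Control 2). The cAMP list, 0 as reported, gave 2 with that block and 0 to 1 with 1 library left out (1 without Control 1 or Control 2), and nucleotide receptors, 0 as reported, gave 1 with limma at either pseudocount and 0 to 1 with 1 library left out (1 without Control 1). The replicate block changed no call of a member. Setting FDM 3 against Control 2 left 3 of the 8 genes in the same direction in both pairs, beside 5 with the mouse numbers. Over all 17432 genes tested, edgeR called 281 genes, the mouse block 1261, the block on the label numbers 439, limma with 1 added 500 and DESeq2 172. With other filters, 133 of 13678 genes of over 100 counts and 498 of 24659 genes of at least 1 count were called. Without Control 1, 2 and 3 in turn, 946 of 17353, 535 of 17179 and 146 of 17282 genes were called. At the depth of these libraries, Ada, with 14 to 30 counts, and Adora2a, with 47 to 63, cannot show changes smaller than their intervals. The cause of these differences was not tested.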
